A study of Mus musculus with 12 samples.

Results

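The autophagy machinery was examined in macrophages of mouse skin, in cells laden with melanin (melanophages) and in other macrophages. The genes were chosen by name: 35 genes of autophagosome formation, cargo capture and their transcriptional control, each read from the probe set that was brightest on average. A probe set was matched for 34 of the 35, among 19938 genes measured, and Optn was not analysed here. The cells were sorted from the skin of untreated wild-type C57BL/6 mice (B6, SPF). The gate took cells with CD11b and CD64 and without CD24, CCR2 or Ly6C. Both cell kinds were split into MHC-II-negative and MHC-II-positive cells, which made 4 groups of 3 arrays. Melanophages had a high side scatter, whereas the labels of the macrophages give both a high and a low one. The labels do not state whether arrays within a group represent different animals. The p-values therefore weigh each difference against the spread among these arrays, and that spread may be technical.

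Autophagy encloses cytoplasm, organelles or ingested material in a membrane that fuses with the lysosome. A kinase complex starts it, a lipid kinase marks the membrane, and lipid carriers enlarge it. A ubiquitin-like conjugation system then attaches ATG8 proteins (the LC3 and GABARAP families), which cargo receptors bind, and in macrophages the same system can act on phagosomes.

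Promoter letters are shown for Gabarapl1, whose difference between the cell kinds had the largest size, and for Atg3, because it holds the E-box CACGTG, a core that TFEB and related factors can bind. Each line is the 250 bases before the RefSeq start on the plus strand of GRCm38.p6, at chr6:129532942-129533191 for Gabarapl1 and chr16:45158579-45158828 for Atg3. Capitals mark the GC box GGGCGG on either strand in Gabarapl1 and the E-box in Atg3.
Gabarapl1: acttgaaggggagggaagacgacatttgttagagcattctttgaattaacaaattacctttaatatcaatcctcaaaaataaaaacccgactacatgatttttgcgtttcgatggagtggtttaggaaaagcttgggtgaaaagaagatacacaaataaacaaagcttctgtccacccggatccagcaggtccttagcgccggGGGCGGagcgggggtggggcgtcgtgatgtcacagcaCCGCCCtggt
Atg3: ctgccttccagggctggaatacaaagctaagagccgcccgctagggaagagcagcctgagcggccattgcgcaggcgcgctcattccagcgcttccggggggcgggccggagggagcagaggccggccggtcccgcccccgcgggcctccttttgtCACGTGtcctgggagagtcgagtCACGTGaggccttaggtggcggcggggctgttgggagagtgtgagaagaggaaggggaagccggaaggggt

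The Atg3 window held 2 E-boxes, starting 94 and 71 bases before the start, and the Gabarapl1 window held 2 GC boxes, starting 47 and 10 bases before it. A window was matched for 26 of the 34 genes. Atg3, Atg5 and Atg7, all of the conjugation system, held an E-box (3 of 26, 11.5%, against 6.86% of 27025 symbols). The GC box, searched on both strands, was in 17 of 26 (65.4%, against 35.4%). The forkhead letters GTAAACA, searched on both strands, were in 0 of 26, against 3.54%. These matches describe letters and not binding.

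No autophagy gene passed the test in any of 7 comparisons (limma, adjusted p under 0.05 after Benjamini-Hochberg correction over all genes). Between melanophages and macrophages, averaged over MHC-II class, 0 of 34 were called, against 24 of all genes (0.120%), and the smallest adjusted p of a member was 0.352, for Wipi2. At an unadjusted p under 0.05 there were 7 of 34 (20.6%, against 7.52% of all genes), 2 higher and 5 lower in melanophages. Between the MHC-II classes, averaged over cell kind, 0 of 34 were called against 152 of all genes (0.762%), with a smallest adjusted p of 0.28, for Atg13. There, 3 of 34 had an unadjusted p under 0.05 (8.82%, against 9.23%). With such low background shares, a count of 0 among 34 genes does not set them apart.

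The data did bound the differences for most of the brighter genes. The 95% interval of the cell kind difference lay within 2-fold in either direction for 33 of 34 genes, Gabarapl1 being the exception, against 97.0% of all genes. For the MHC-II difference it did for 32 of 34, all but Uvrag and Gabarapl2, against 96.5% of all genes. Among the 20 genes above the background limit given below in every group, it did for 19 and for 18. The shares over all genes include many dim ones, since 36.3% of all genes and 67.6% of members had a mean above that limit. The same share was not counted over the brighter genes alone, so these numbers do not set the list apart. For the dimmer genes a narrow interval may not bound the difference in RNA. These intervals are not adjusted for their number. In sorted populations, fewer cells of a type and less RNA per cell cannot be told apart.

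Values are log2 expression values that the authors made with RMA. The medians of the arrays over all probe sets lay between 2.97 and 3.08, and a group mean under 3.58, which is 0.5 above the highest median, is called near background. In all 4 groups, 8 genes were near background: Atg14, Atg2b, Atg16l1, Atg4b, Atg4c, Atg4d, Epg5 and Tfeb. In some groups, 6 were: Atg13, Pik3r4, Becn1, Atg2a, Wipi2 and Atg5. The other 20 lay above that limit in every group. Differences of the dimmer genes may be lower bounds. Each gene was compared only with itself, since levels of different probe sets are not comparable.

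**Figure D1:**
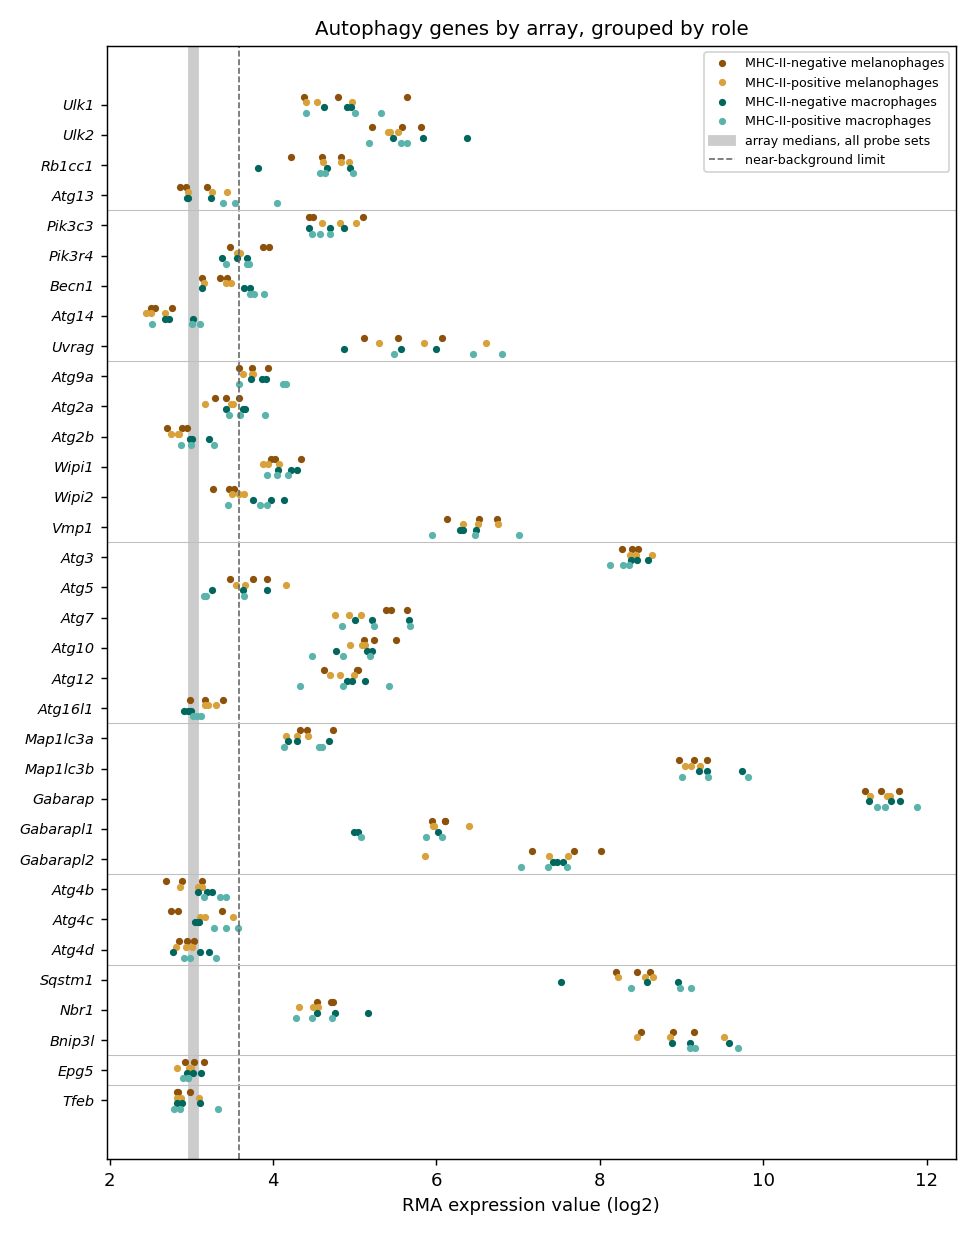
Log2 RMA value (x axis) of the 34 autophagy genes (y axis, by role, with lines between roles) on each of 12 arrays; each point is 1 array, coloured by group. The grey band spans the array medians (2.97 to 3.08) and the dashed line is the near-background limit of 3.58; Uvrag and Gabarapl2 show wide scatter within groups.

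All 7 macrophage genes examined were above background in at least 1 group, and 0 of 5 melanocyte, 0 of 3 endothelial and 0 of 2 T cell genes were. So were 2 of 4 keratinocyte, 2 of 4 fibroblast, 2 of 3 mast cell, 3 of 3 neutrophil and 3 of 4 dendritic cell genes. The mean of the mast cell genes spanned 3.59 to 5.69 over the arrays, with Kit near background in all groups, and that of the dendritic cell genes spanned 3.14 to 4.68. Cd207, a Langerhans cell gene, averaged 5.17 in MHC-II-positive macrophages and 3.17 in MHC-II-positive melanophages. In the same order Itgax averaged 5.47 and 4.03, Flt3 3.61 and 3.64, and Zbtb46 3.47 and 3.37. Between the cell kinds 2 of these 4 dendritic cell genes were called, against 0.120% of all genes. For MHC-II class 2 of the 4 were called, against 0.762%. Ccr2 averaged 6.75 and 7.11 in MHC-II-positive melanophages and macrophages, although the gate was CCR2-negative. Cd24a, whose protein the gate also left out, averaged 4.38 and 5.98 in these groups, and 3.16 and 4.13 in MHC-II-negative melanophages and macrophages. The part of such cells in the values given here was not tested. Arrays of the same group correlated at 0.972 to 0.988 on average, and the least alike to their group were replicate 1 of the MHC-II-negative macrophages and, after it, replicate 3 of the MHC-II-positive ones.

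Among the initiation genes, which form the kinase complex that starts autophagy, Atg13 had the smallest p for MHC-II class. ATG13 is the adaptor that links the kinase to the rest of the complex. It read 2.95, 3.24 and 2.96 in MHC-II-negative macrophages and 4.05, 3.39 and 3.54 in MHC-II-positive macrophages, and these groups did not overlap. In melanophages it read 3.20, 2.93 and 2.86 without MHC-II and 3.25, 2.96 and 3.44 with it, and these overlapped. Every group mean of Atg13 except that of MHC-II-positive macrophages was near background. The averaged difference was 0.42 ± 0.13 (SE), or 1.33-fold higher in MHC-II-positive cells (adjusted p = 0.28). It was 0.61 ± 0.18 in macrophages (adjusted p = 0.318) and 0.22 ± 0.18 in melanophages (adjusted p = 0.975), and the interaction had an adjusted p of 1. Within MHC-II-positive cells Atg13 lay lower in melanophages by a log2 difference of -0.44 ± 0.18 (adjusted p = 0.765). The kinase genes Ulk1 and Ulk2 and the scaffold gene Rb1cc1 differed between the cell kinds by -0.18 to 0.07.

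Becn1 and Atg14 encode parts of the PI3-kinase complex that marks the forming membrane. Becn1 read 3.42, 3.15 and 3.49 in MHC-II-positive melanophages and 3.89, 3.71 and 3.76 in MHC-II-positive macrophages, with no overlap. In MHC-II-negative cells the melanophages (3.44, 3.12 and 3.35) overlapped the macrophages (3.64, 3.72 and 3.13). Every group mean of Becn1 except that of MHC-II-positive macrophages was near background. The averaged difference was -0.31 ± 0.11 (adjusted p = 0.513), and within the MHC-II-positive class it was -0.43 ± 0.16 (adjusted p = 0.697). Atg14, near background, differed by -0.26 ± 0.11 (adjusted p = 0.631). The catalytic subunit gene Pik3c3 and its partner Pik3r4 differed by 0.12 ± 0.13 and 0.10 ± 0.09.

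Uvrag, which encodes a BECN1 partner, scattered most within groups, with a pooled SD of 0.60. It read 4.86, 5.99 and 5.57 in MHC-II-negative and 6.81, 6.45 and 5.48 in MHC-II-positive macrophages. Melanophages read 5.53, 5.11 and 6.06 without MHC-II and 6.60, 5.29 and 5.85 with it. All 4 groups overlapped, and the averaged MHC-II difference of 0.56 ± 0.31 did not pass (adjusted p = 0.639).

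Wipi2, which encodes a reader of the lipid mark that recruits the conjugation machinery, had the smallest p between the cell kinds. It read 3.53, 3.26 and 3.47 in MHC-II-negative melanophages against 3.98, 3.76 and 4.14 in MHC-II-negative macrophages, and every macrophage array was above every melanophage array. With MHC-II it read 3.64, 3.58 and 3.50 in melanophages and 3.93, 3.84 and 3.45 in macrophages, which overlap through 1 macrophage array. Both melanophage means of Wipi2 were near background. The averaged difference was -0.35 ± 0.10, or 1.28-fold lower in melanophages (adjusted p = 0.352). Within the MHC-II-negative class it was -0.54 ± 0.14 (adjusted p = 0.508), within the MHC-II-positive class -0.17 ± 0.14 (adjusted p = 0.918). The interaction of 0.37 ± 0.19 had an adjusted p of 1.

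Atg2b, which encodes a lipid transfer protein, was the 1 member whose arrays did not overlap between the cell kinds in either class (2.94%, against 0.456% of all genes lower in both). It read 2.88, 2.70 and 2.95 against 3.21, 2.98 and 3.01 without MHC-II, and 2.83, 2.85 and 2.75 against 3.28, 2.99 and 2.88 with it, melanophages first. All of these values are near background. The difference was -0.23 ± 0.08 (adjusted p = 0.513), and a second probe set of Atg2b gave -0.06 ± 0.06 (adjusted p = 0.88). Its paralog Atg2a differed by -0.20 ± 0.10 and Atg9a, which encodes a membrane protein that supplies lipid vesicles, by -0.16 ± 0.11. Wipi1 and Vmp1 differed by -0.08 ± 0.08 and 0.07 ± 0.17.

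The conjugation genes held no called difference. Atg7, which encodes the enzyme that activates ATG8 proteins and ATG12, read 5.38, 5.44 and 5.64 in MHC-II-negative and 4.93, 5.07 and 4.75 in MHC-II-positive melanophages, with no overlap. In macrophages it read 5.24, 5.68 and 4.84 with MHC-II, and the values without MHC-II, up to 5.67, lay inside that range. Averaged over cell kind, Atg7 differed between the MHC-II classes by -0.31 ± 0.15 (adjusted p = 0.594). The MHC-II difference was -0.57 ± 0.21 in melanophages (adjusted p = 0.737) and -0.04 ± 0.21 in macrophages (adjusted p = 0.98), and the difference between these had an adjusted p of 1.

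ATG3 passes ATG8 proteins to their lipid, and its promoter is printed above. Atg3 read 8.37, 8.45 and 8.64 in MHC-II-positive melanophages and 8.36, 8.28 and 8.12 in MHC-II-positive macrophages, a narrow separation without overlap. In MHC-II-negative cells it read 8.47, 8.40 and 8.27 in melanophages and 8.59, 8.45 and 8.39 in macrophages, which overlap. The differences were 0.23 ± 0.10 (adjusted p = 0.789) and -0.09 ± 0.10 (adjusted p = 0.993). Between the MHC-II classes of macrophages Atg3 differed by -0.22 ± 0.10 (adjusted p = 0.636). Atg3 was the 1 member with an unadjusted p under 0.05 for the interaction (0.33 ± 0.14, adjusted p = 1), against 4.11% of all genes, and no gene was called there (0%).

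Atg16l1, Atg5 and Atg12 encode the complex that directs lipidation. Atg16l1, near background, read 3.16, 2.99 and 3.39 in melanophages without MHC-II and 3.30, 3.21 and 3.17 in those with it. The macrophages read 2.96, 2.99 and 2.91 without MHC-II and 3.06, 3.02 and 3.11 with it. The groups separated with MHC-II and met at 2.99 without it. The averaged difference was 0.19 ± 0.07 (adjusted p = 0.523). Atg5 and Atg10, which encodes the enzyme that joins ATG12 to ATG5, differed by 0.29 ± 0.16 and 0.23 ± 0.13, and Atg12 by -0.07 ± 0.16.

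Among the ATG8 genes, Gabarapl1 read 5.95, 6.11 and 6.10 in MHC-II-negative and 6.40, 5.96 and 5.97 in MHC-II-positive melanophages. It read 4.99, 5.04 and 6.01 in MHC-II-negative and 6.07, 5.08 and 5.87 in MHC-II-positive macrophages. The melanophage arrays were close together, while 3 macrophage arrays lay near 5 and the other 3 at or near the melanophage values. The averaged difference was 0.57 ± 0.21, or 1.48-fold higher in melanophages (95% interval 1.07 to 2.06, adjusted p = 0.555). It was 0.70 ± 0.30 in MHC-II-negative cells (adjusted p = 0.85). Over 25 alternative settings the difference in that class ranged from 0.52 to 1.04, and the smallest adjusted p was 0.609. The highest value was that without MHC-II-negative macrophages replicate 3.

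Gabarap read 11.44, 11.66 and 11.24 in MHC-II-negative and 11.56, 11.51 and 11.31 in MHC-II-positive melanophages. It read 11.57, 11.30 and 11.67 in MHC-II-negative and 11.49, 11.39 and 11.88 in MHC-II-positive macrophages. All groups overlapped, and the difference was -0.10 ± 0.11 (95% interval -0.34 to 0.15, adjusted p = 0.894).

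Map1lc3b encodes LC3B, the protein most used to mark autophagosomes. It read 9.31, 9.15 and 8.97 in melanophages without MHC-II and 9.23, 9.11 and 9.04 in those with it. The macrophages read 9.31, 9.22 and 9.74 without MHC-II and 9.01, 9.32 and 9.81 with it. Replicate 3 of each macrophage group was highest, and the other macrophage arrays lay close to the melanophages. The difference was -0.26 ± 0.14 (adjusted p = 0.719), and that of Map1lc3a was -0.02 ± 0.12 (adjusted p = 0.987).

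Gabarapl2 read 8.01, 7.68 and 7.18 in MHC-II-negative and 5.86, 7.38 and 7.61 in MHC-II-positive melanophages, and the macrophages lay between 7.04 and 7.60. A single array was below all others. The MHC-II difference in melanophages was -0.67 ± 0.39 (adjusted p = 0.936), and -0.13 without MHC-II-positive melanophages replicate 1.

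The proteases of the ATG4 family prime ATG8 proteins and release them from membranes. Atg4b, near background, read 2.88, 2.69 and 3.13 against 3.25, 3.08 and 3.19 without MHC-II, which overlap, and 3.08, 2.87 and 3.13 against 3.42, 3.15 and 3.35 with it, melanophages first, which do not. The averaged difference was -0.28 ± 0.09 (adjusted p = 0.429). Atg4c, also near background, read 3.10, 3.08 and 3.05 in MHC-II-negative and 3.58, 3.43 and 3.27 in MHC-II-positive macrophages, with no overlap. Its averaged MHC-II difference was 0.31 ± 0.12 (adjusted p = 0.407).

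The 3 measured cargo receptor genes lay lower in melanophages averaged over MHC-II class, as 45.2% of all genes did, and none passed. In MHC-II-negative cells alone Sqstm1 lay higher in melanophages, by 0.07 ± 0.33 (adjusted p = 0.998). Bnip3l, which encodes a receptor for mitochondria, read 8.90, 9.15 and 8.50 in melanophages without MHC-II and 9.52, 8.45 and 8.86 in those with it. The macrophages read 8.88, 9.10 and 9.58 without MHC-II and 9.17, 9.10 and 9.70 with it. These overlap, and the difference was -0.36 ± 0.20 (adjusted p = 0.746). Sqstm1, which encodes p62, a receptor for ubiquitin-tagged cargo, ranged from 7.52 to 8.96 among MHC-II-negative macrophages alone and differed by -0.14 ± 0.23 (adjusted p = 0.938). Nbr1, a related receptor gene, differed by -0.10 ± 0.11, and by -0.27 ± 0.11 between the MHC-II classes (adjusted p = 0.5). The tether gene Epg5 and Tfeb, which encodes the lysosomal and autophagy transcription factor, were near background and differed between the cell kinds by -0.00 ± 0.06 and -0.06 ± 0.10.

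The kept probe sets of Map1lc3b, Gabarapl2 and Bnip3l may read near-identical copies. Probe set numbers mostly follow genome order, and 94.3% of adjacent named ones have genes on the same chromosome. All 10 neighbours of each kept probe set were on chromosomes 14, 5 and 12, in that order, whereas the genes are on 8, 8 and 14. Other probe sets of these genes gave cell kind differences of -0.20 ± 0.10 (adjusted p = 0.71), 0.08 ± 0.21 (adjusted p = 0.963) and -0.27 ± 0.17 (adjusted p = 0.786), so Gabarapl2 changed sign. The MHC-II difference of Gabarapl2 in melanophages was -0.07 with its other probe set.

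**Figure D2:**
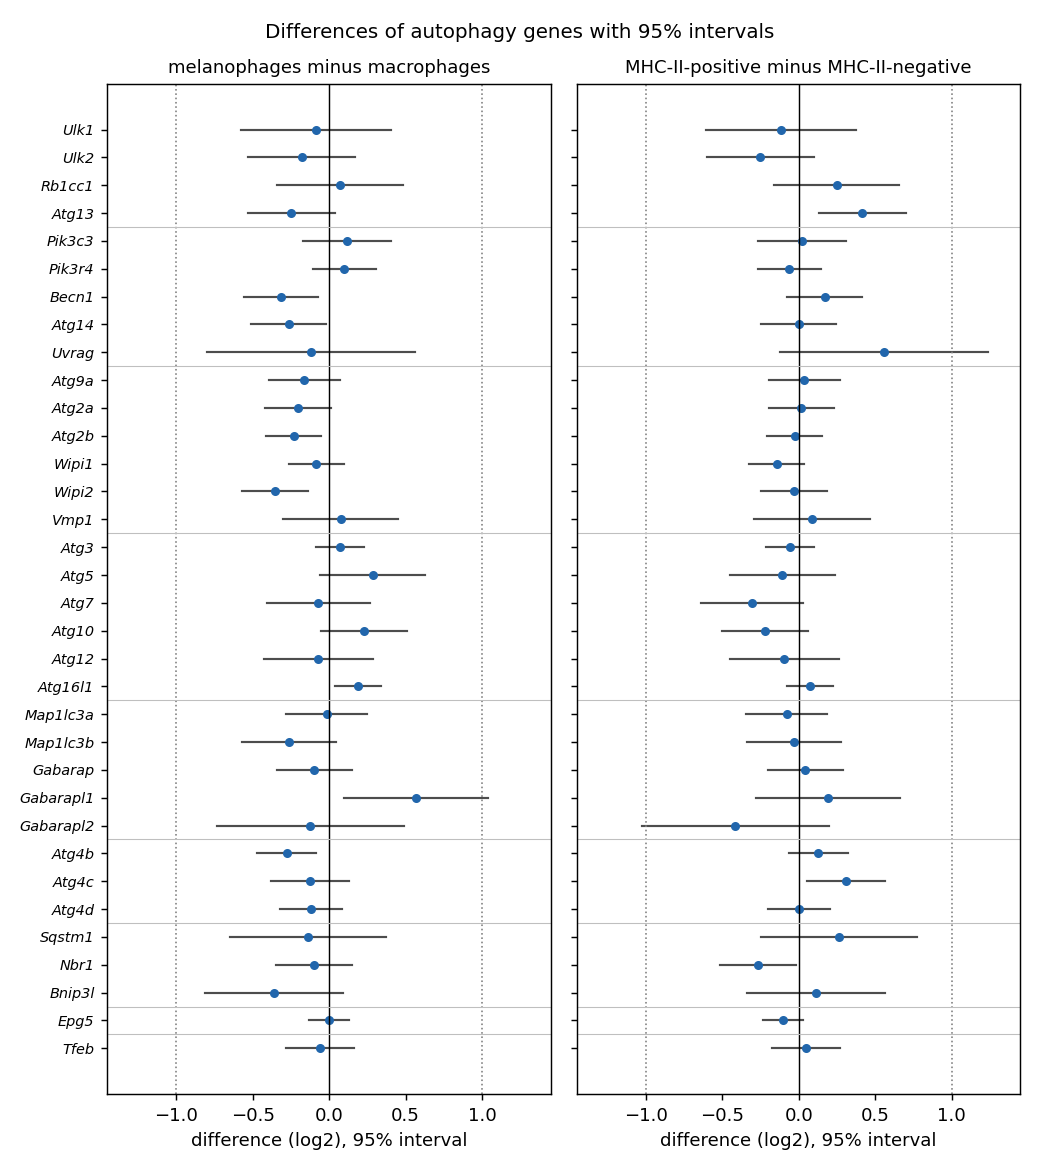
Log2 differences (x axis) of the 34 autophagy genes (y axis, by role) with 95% intervals from the limma fit, in 1 panel each for cell kind and MHC-II class. The intervals of 7 genes for cell kind and 3 for MHC-II class leave out 0 before any adjustment, and Gabarapl1 (0.57) has the largest cell kind difference.

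Over the list, 25 of 34 averaged cell kind differences were below 0 (73.5%, against 45.2% of all genes), with a median of -0.10 against 0.01. Among genes with a mean of at least 3.58 over all arrays, 15 of 23 members were below 0 (65.2%, against 51.7%) and the medians were -0.08 and -0.01. In that set 2 of 23 had an unadjusted p under 0.05 (8.7%, against 13.3%). The difference was below 0 in both MHC-II classes for 18 genes (52.9%, against 24.1%), above 0 in both for 7 (20.6%, against 30.8%) and opposite for 9. Of the 23 brighter members, 10 were below 0 in MHC-II-negative cells (43.5%, against 50.1%), with a median of 0.07 against -0.00. In MHC-II-positive cells 16 were (69.6%, against 53.3%), with a median of -0.09 against -0.02. Among the brighter members, those below 0 were therefore the smaller part in MHC-II-negative cells and the larger part in MHC-II-positive cells. For MHC-II class the averaged differences were 17 above 0 and 17 below, with a median of 0.00, and 59.8% of all genes were below 0. The brighter genes leaned the other way, with 14 of 23 members below 0 (60.9%, against 46.4%) and medians of -0.06 and 0.02. In that set 1 of 23 had an unadjusted p under 0.05 (4.35%, against 16%).

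**Figure D3:**
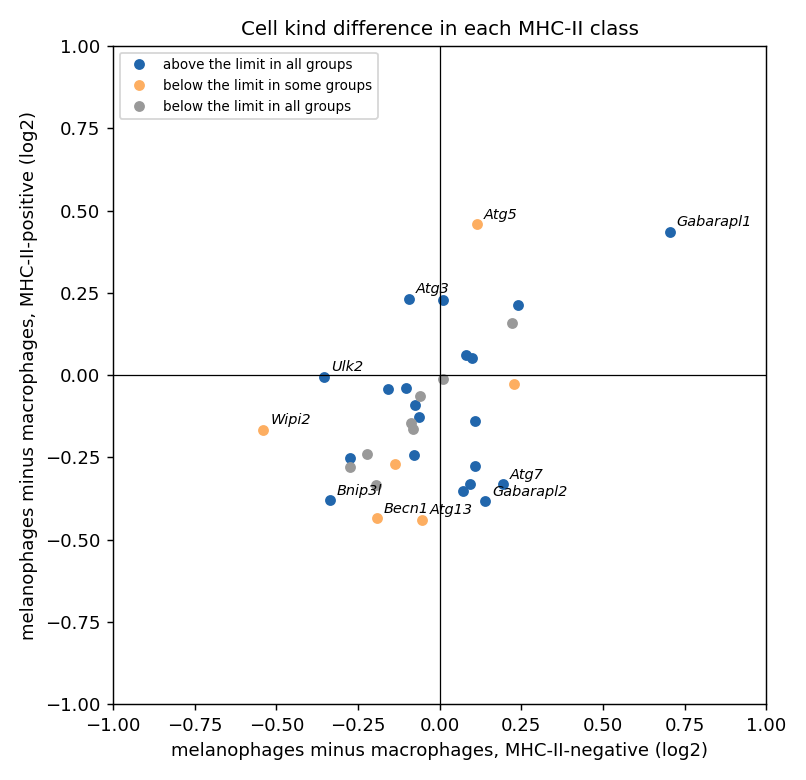
Cell kind difference (melanophages minus macrophages, log2) in MHC-II-negative cells (x axis) and MHC-II-positive cells (y axis); each point is 1 gene, coloured by whether it was near background. The 18 genes at the lower left were below 0 in both classes and the 7 at the upper right above 0 in both.

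Within single classes and kinds, 0 of 34 were called as well. All genes called numbered 1 (0.00502%) and 3 (0.0150%) for the cell kinds without and with MHC-II, and 42 (0.211%) and 68 (0.341%) for MHC-II class in melanophages and macrophages. Members with an unadjusted p under 0.05 numbered 4 (5.65% of all genes) and 4 (6.30%) for the cell kinds, and 1 (5.70%) and 1 (7.83%) for MHC-II class. These counts moved when 1 array was left out. The first ranged from 1 to 4. It was 1 without replicate 1 of the MHC-II-negative melanophages (5.76% of all genes) or macrophages (8.58%). It was 4 without MHC-II-negative macrophages replicate 3 (5.26%). The second ranged from 0 (4.85% of all genes), without MHC-II-positive melanophages replicate 2, to 8 (9.26%), without MHC-II-positive macrophages replicate 3. Those for MHC-II class in melanophages ranged from 0 (5.26% of all genes), without MHC-II-negative melanophages replicate 3, to 3 (6.41%), without replicate 1 of that group. In macrophages they ranged from 1 (7.32% to 7.86% of all genes) to 6, the highest without MHC-II-positive macrophages replicate 3 (9.41% of all genes there). The 95% interval lay within 2-fold for 32 of 34 (92.3% of all genes) and 29 of 34 (91.7%) for the cell kinds without and with MHC-II. For MHC-II class it did for 31 of 34 in melanophages (92.5%) and 30 of 34 in macrophages (90.7%). Of the 20 genes above background in every group, these numbers were 18, 15, 17 and 17, in that order. Here too the share over the brighter genes alone was not counted.

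Arrays of compared groups were fully separated for few genes. Between the cell kinds without MHC-II, 2 members lay lower in melanophages, Atg2b and Wipi2 (3.91% of all genes), and 0 higher (5.57%). With MHC-II, 3 lay lower, Becn1, Atg2b and Atg4b (4.91%), and 2 higher, Atg3 and Atg16l1 (7.51%). In both classes together 0 lay higher (0.707%). Between the MHC-II classes of melanophages, 1 lay lower in MHC-II-positive cells, Atg7 (7.13%), and 0 higher (5.12%). In macrophages 3 lay higher, Atg13, Atg16l1 and Atg4c (4.96%), and 1 lower, Atg3 (7.07%). MHC-II-positive macrophages had the highest group mean for 13 genes and each other group for 7. MHC-II-positive melanophages had the lowest for 15, MHC-II-negative melanophages for 8, MHC-II-negative macrophages for 7 and MHC-II-positive macrophages for 4. The same was not counted over all genes, so these numbers do not set the list apart.

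**Figure D4:**
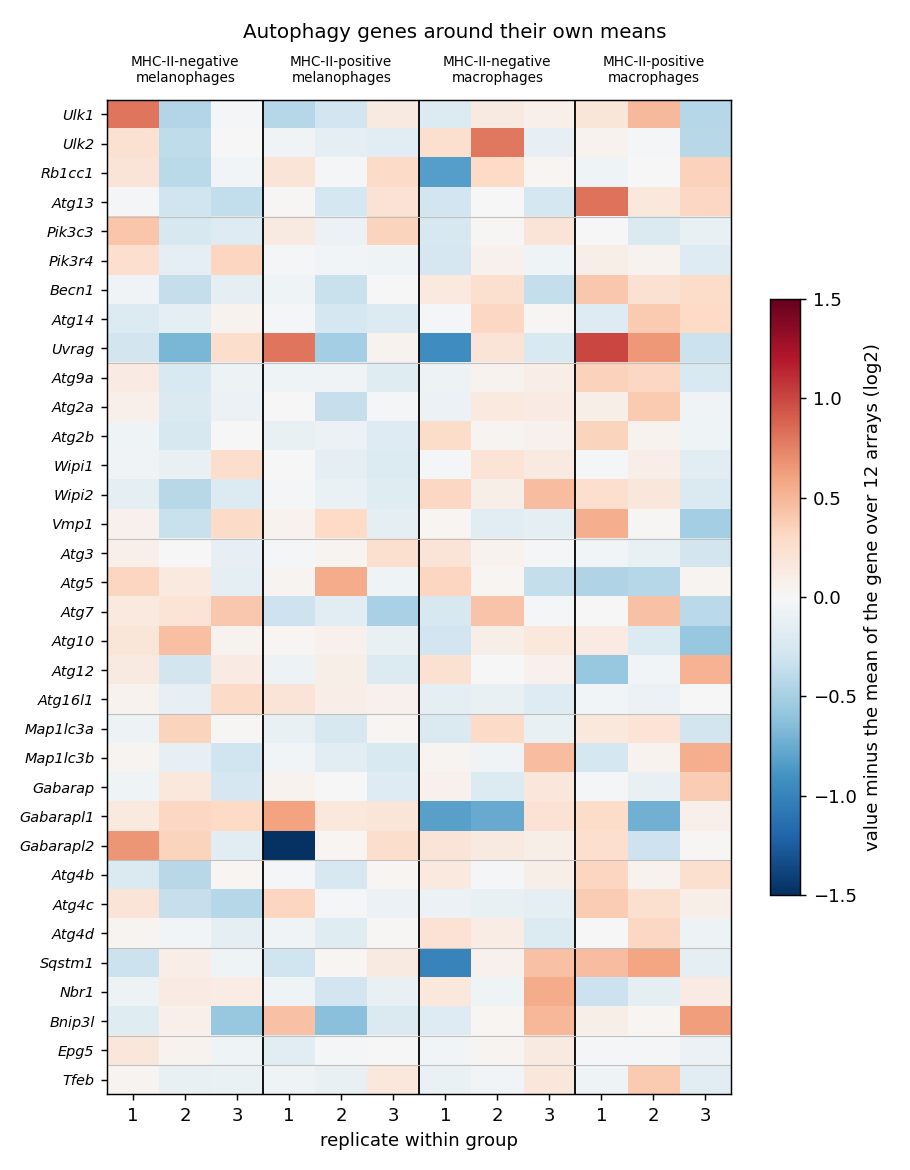
Log2 value minus the gene's mean over 12 arrays (colour) for the 34 autophagy genes (rows, by role) on each array (columns, by group and replicate). Arrays of the same group differ in colour for many genes, and the low Gabarapl2 value of MHC-II-positive melanophages replicate 1 (5.86) stands out.

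Of 63 other autophagy and lysosomal control genes, 62 were measured and 0 were called in each comparison, against 0 to 0.762% of all genes. Between the cell kinds 8 of 62 had an unadjusted p under 0.05, 4 in each direction, against 7.52% of all genes. Rragd, a nutrient-sensing GTPase gene, differed by 0.30 ± 0.06 (adjusted p = 0.172). Averaged over MHC-II class it read 3.02 in melanophages and 2.72 in macrophages, both under the near-background limit given above. Ddit4, an inhibitor of mTORC1 signalling, differed by -0.33 ± 0.08 (adjusted p = 0.266). It averaged 3.44 in melanophages, under that limit, and 3.77 in macrophages, above it. For MHC-II class 5 of 62 had an unadjusted p under 0.05, 1 higher and 4 lower, against 9.23% of all genes. Ncoa4, the ferritin receptor gene, differed by -0.36 ± 0.08 (adjusted p = 0.112), and Tmem41b, a lipid scramblase gene, by -0.62 ± 0.17 (adjusted p = 0.205).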

How the data were processed

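Expression was measured on 12 microarrays, 3 in each of 4 groups. RNA (3 to 20 ng) was amplified with the NuGEN Pico WTA system, per the labels' protocols. The authors deposited log2 values made by RMA in oligo, per the submitters' processing notes; the sources used here do not give versions or settings. Of 35556 probe sets, 21789 had 1 gene symbol, 1621 several and 12146 none here. A gene with several probe sets was read from the brightest by mean. limma 3.58.1 in R 4.3.3 (lmFit, eBayes) fitted a mean per group to all 12 arrays and 19938 genes, without a filter, in two-sided tests with Benjamini-Hochberg adjustment per comparison. Errors are standard errors, and precision is limited by how many arrays there are. The fit was tested on simulated data, with shifts in genes brighter than the median that were larger than any averaged member difference. That simulation therefore does not show what the test detects among dim genes or at the sizes reported here. Full statistics went to the 4 members with the smallest p in each averaged comparison and 2 in each other one, and further members were described by role. Members, lists and tests were chosen with earlier results of these data known. Promoter windows are from RefSeq, GRCm38.p6; no array coordinates are given. Alternatives were filters on dim genes, normalizations, probe set rules, eBayes options, array weights, a block by runs of sample codes, and left-out arrays.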

Additional observations from a re-analysis of the deposited data

How the results depend on the processing

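Over 25 alternatives, 1 of them (the probe set with the lowest mean) chosen after seeing the data, 0 members were called in all 172 recomputed counts. The 605 recomputed values of 25 single-gene results kept their direction and stayed uncalled. These results were picked for a small p in the same data, so a kept direction says little about the other members. The cell kind difference of Gabarapl2, not among them, changed sign with its other probe set. The smallest adjusted p of a member was 0.0803, for Wipi2 between the cell kinds without both far macrophage arrays, where 117 genes were called in place of 24; without MHC-II-negative melanophages replicate 1, 1 was. Without MHC-II-positive macrophages replicate 2 the median difference of the members was -0.06 in place of -0.14 for the cell kinds with MHC-II, and -0.02 in place of 0.06 for MHC-II class in macrophages; the cause was not tested. Members with an unadjusted p under 0.05 between the cell kinds numbered 4 of 28 (brighter 50% of genes, 14.3% against 9.55% of the genes tested there) to 9 (quantile normalization again, 26.5% against 7.93%). Between the MHC-II classes they numbered 1 (without MHC-II-negative melanophages replicate 2, 2.94% against 8.5%) to 6 (quantile normalization again, 17.6% against 9.42%). The labels do not say what runs of consecutive sample codes are, and the mean correlation of residuals was -0.0163 within runs and 0.00979 between them. With these runs as a block 0 members were called in each of 7 comparisons, and the smallest adjusted p of a member between the cell kinds was 0.237. Values near background limit what the dimmer genes can show.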
